A study of Homo sapiens with 6 samples.

Results

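Chemokines and inflammatory cytokines are small secreted proteins that recruit and activate leukocytes, and epithelial cells make several of them. RNA for 10 of these genes was followed here: the chemokines CXCL1, CXCL2, CXCL3, CXCL8, CXCL16, CCL20 and CCL28 and the cytokines IL6, IL18 and TNF. These genes, and the further gene lists below, were chosen by symbol with earlier results of these data known. Numbers called within them are therefore no measure of a list as a set. All 10 genes matched 1 Ensembl identifier each among the 60612 in the count tables. The libraries came from SKBR3, a human mammary epithelial cancer cell line in which the gene for the receptor HER2 is amplified. In 3 libraries, labelled SKBR3_HR, the cells had spent 30 weeks in trastuzumab, a therapeutic antibody that binds HER2, at rising concentrations. The 3 other libraries came from untreated SKBR3. The design asks how RNA levels differ between cells after this long exposure and cells that never received the antibody. Whether trastuzumab was present at harvest is not stated, nor whether the line is a clone or a pool. Nothing in the labels places replicates in separate cultures, so each p-value reflects the spread among these 6 libraries alone, and that spread could be technical.

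The trastuzumab libraries held 71.0, 82.9 and 81.7 M counts and the untreated libraries 72.4, 71.8 and 72.1 M. Levels are given as raw counts per gene, as counts divided by the TMM-scaled library total in M (CPM), and as the authors' FPKM, which also divides by gene length. A count of 0 allows up to 0.0372 to 0.0428 CPM in a trastuzumab library and 0.0406 to 0.0413 CPM in an untreated library (3 counts, counting error only). Of 17854 genes with enough counts for edgeR's quasi-likelihood test, 4274 (23.9%) rose and 4534 (25.4%) fell at an adjusted p below 0.05, with Benjamini-Hochberg adjustment over all of them. Every trastuzumab library lay above every untreated library for 28.3% of tested genes. Fold changes followed transcript GC content, with a Spearman rho of 0.489 over 17649 genes, a description only since genes are not replicates. In the GC-poorest quintile of genes the median log2 fold change was -0.46, and in the GC-richest it was 0.35. Values from a corrected fit, which removes the trend on GC content and length from each library, are therefore given where they change a call. That fit also removes any change of the cells' own that goes with GC content or length, and it called 18.5% of genes higher.

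Chemokines fall into the CXC and CC families by the spacing of their first cysteines, and act through G protein-coupled receptors on target cells. CXCL1, CXCL2, CXCL3 and CXCL8 attract neutrophils through CXCR2, and CXCL8 also uses CXCR1. Their genes, like those of CCL20, IL6 and TNF, are textbook targets of the transcription factor NF-kB, which binds kB sites near their start sites. TNF and IL6 act through cell surface receptors to change gene expression, whereas IL18 is made as an inactive precursor that inflammatory caspases cut.

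The 150 bases before the transcription start are shown for the 4 neutrophil attractants and CCL20, the members with the largest differences and their closest relatives, since they share kB-like letters. They come from RefSeq on GRCh38.p14 and are written 5′ to 3′ on the strand of the gene. Capitals mark every base covered by the kB consensus, by GGAATTTCC or by both, searched on both strands. The matches of these motifs overlap each other.
CXCL1 (chr4:73869243-73869392, plus strand): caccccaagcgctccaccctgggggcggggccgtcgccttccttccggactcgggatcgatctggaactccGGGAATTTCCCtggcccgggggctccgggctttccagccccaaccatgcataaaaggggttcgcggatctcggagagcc
CXCL2 (chr4:74099196-74099345, minus strand): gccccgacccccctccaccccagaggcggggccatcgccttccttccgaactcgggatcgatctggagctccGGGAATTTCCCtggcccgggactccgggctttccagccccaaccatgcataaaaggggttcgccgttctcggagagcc
CXCL3 (chr4:74038690-74038839, minus strand): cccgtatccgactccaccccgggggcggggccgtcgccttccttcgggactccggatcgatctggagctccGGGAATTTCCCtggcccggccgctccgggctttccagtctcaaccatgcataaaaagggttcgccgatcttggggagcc
CXCL8 (chr4:73740419-73740568, plus strand): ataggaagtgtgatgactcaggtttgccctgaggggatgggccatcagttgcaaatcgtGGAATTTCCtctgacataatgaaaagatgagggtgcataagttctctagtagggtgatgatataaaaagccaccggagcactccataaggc
CCL20 (chr2:227813692-227813841, plus strand): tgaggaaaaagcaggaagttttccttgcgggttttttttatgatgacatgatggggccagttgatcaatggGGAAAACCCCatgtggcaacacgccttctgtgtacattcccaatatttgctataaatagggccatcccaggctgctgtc

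The windows of CXCL1 and CXCL2 were identical in 88.8% of aligned columns, those of CXCL1 and CXCL3 in 88.1% and those of CXCL2 and CXCL3 in 86.3%. All 3 held the kB consensus on both strands, with its plus strand match at bases -79 to -70 in CXCL1 and CXCL3 and -78 to -69 in CXCL2, where -1 is the base before the start. The CXCL8 window was identical to these in 44.0% to 46.8% of columns. It held no kB consensus, but held GGAATTTCC at -91 to -83, TGANTCA at -137 to -131 and TATAAA at -31 to -26. CCL20 held the consensus on the minus strand at -79 to -70 and TATAAA at -29 to -24. RefSeq promoter entries were matched for 8 of the 10 genes. Of the windows not printed, that of IL6 held the consensus at -73 to -64, that of TNF held only TATAAA, and those of CCL28 held none of the 4 motifs. Among 34796 RefSeq promoter windows of the same length, 3.16% held the kB consensus, 0.26% GGAATTTCC, 4.19% TGANTCA and 6.74% TATAAA. A match is a run of letters and was not measured as a binding site here. The gene records of GENCODE 29 reach further upstream for CXCL2, CXCL3, CXCL8 and CCL20, so these windows lie partly or wholly inside those genes.

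Of the 10 genes, 6 had enough counts for the test. CXCL1, CXCL8, CXCL16, CCL20 and TNF rose, 5 of 6 where 23.9% of all tested genes were called higher, none fell where 25.4% were called lower, and IL18 did not pass. In the same 5 genes every trastuzumab library lay above every untreated library, against 28.3% of all tested genes. CXCL2, CXCL3, CCL28 and IL6 stayed at 0 to 11 counts in every library and were not tested. In the corrected fit 4 of the 6 were called higher, against 18.5% of genes, CXCL16 no longer being past the threshold. CXCL1, CXCL8 and CCL20 met the count minimum only through the trastuzumab libraries and so had to differ to be tested, and the number called is no measure of the 10 genes as a set. The bulk RNA cannot separate more expressing cells from more RNA per cell. Few reads stand behind most of these values: apart from CXCL16 and IL18, no member exceeded 243 counts in any library.

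**Figure D1:**
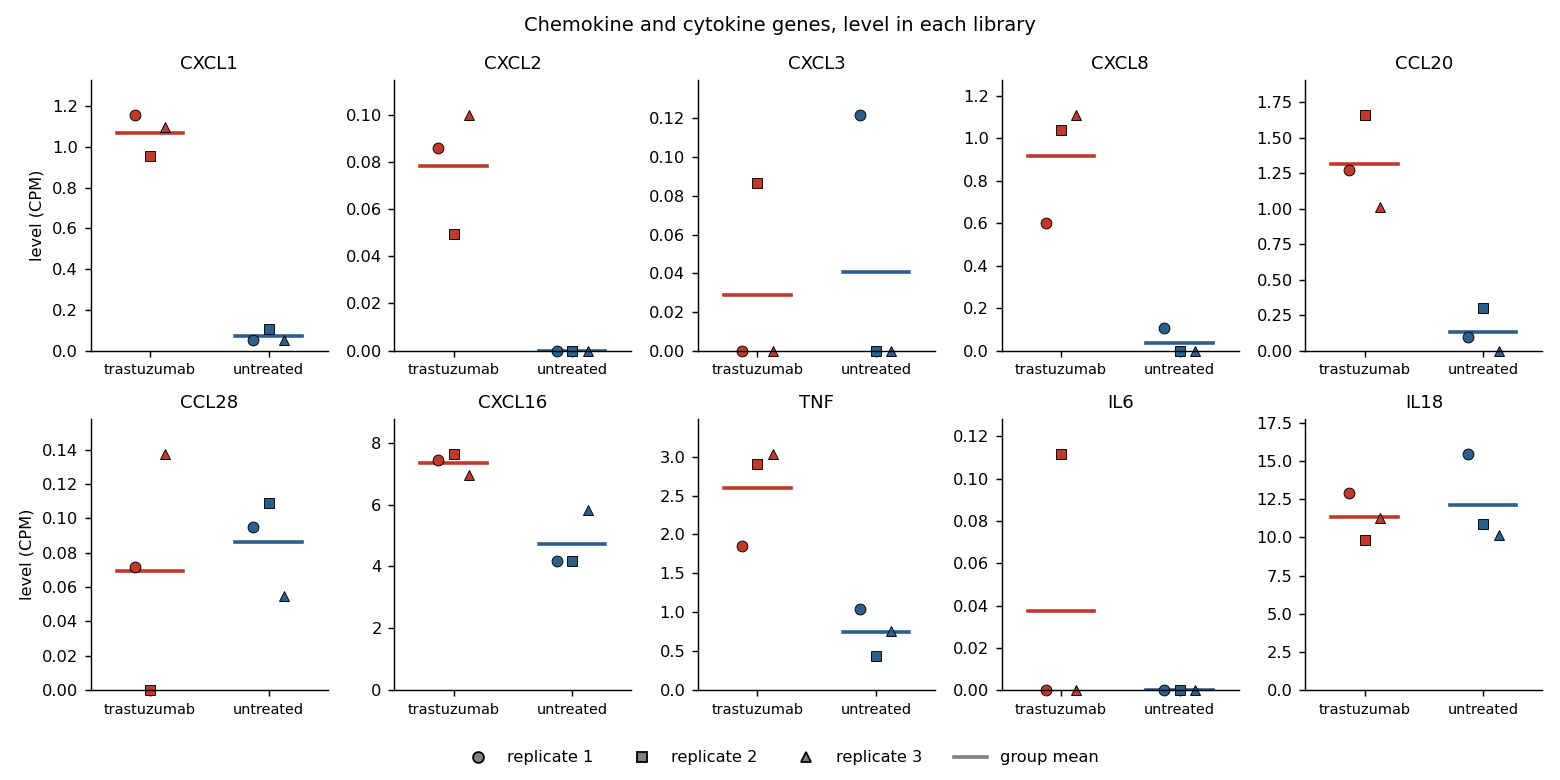
Level of each of the 10 genes in each library, in CPM on linear axes scaled per gene, with trastuzumab left of untreated. Points are single libraries, their shape gives the replicate, and lines are group means. CXCL1, CXCL8, CXCL16, CCL20 and TNF lie higher in all 3 trastuzumab libraries than in any untreated library, IL18 overlaps between the groups, and the axes of CXCL2, CXCL3, CCL28 and IL6 span only the CPM of 0 to 11 counts.

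Per unit of gene length, the order of levels was led by IL18 in both groups. In trastuzumab libraries IL18 averaged 3.73 ± 0.511 FPKM, CXCL16 2.24 ± 0.11, TNF 1.33 ± 0.328, CCL20 0.697 ± 0.172, CXCL1 0.67 ± 0.0625 and CXCL8 0.347 ± 0.11 (SD, n = 3). Neighbours in this order did not overlap between libraries except CCL20 and CXCL1. In untreated libraries IL18 averaged 4.19 ± 1.02 FPKM, CXCL16 1.51 ± 0.289, TNF 0.397 ± 0.165, CCL20 0.07 ± 0.0819 and CXCL1 0.05 ± 0.0173 (SD, n = 3). CXCL8 averaged 0.0133 FPKM there, from 0.04 in replicate 1 and 0 in the others. CXCL2, CXCL3, CCL28 and IL6 had 0 to 0.06 FPKM in all 6 libraries, and among these 4 genes no order of levels can be read.

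CXCL1 is a neutrophil attractant first described as a growth-stimulating product of melanoma cells (ENSG00000163739, chr4:73869393-73871242, plus strand, hg38). It had 81, 77 and 88 counts in trastuzumab replicates 1, 2 and 3, against 4, 8 and 4 counts in untreated replicates 1, 2 and 3. These counts correspond to 1.16, 0.954 and 1.10 CPM in trastuzumab libraries and 0.0541, 0.109 and 0.055 CPM in untreated libraries. The trastuzumab libraries lay close together and the lowest of them was far above the highest untreated library. The mean was 1.07 ± 0.104 CPM in trastuzumab libraries and 0.0726 ± 0.0312 CPM in untreated libraries (SD, n = 3 each). The log2 fold change was 3.85 ± 0.52 (SE), or 14.4-fold, with an edgeR adjusted p of 1.00e-05. Of the 50-base words in its transcripts, 4.8% also occur in a relative, chiefly CXCL2, and reads from those words may have been shared out or dropped in counting.

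CXCL8, also called interleukin 8, is the main neutrophil attractant of human epithelia (ENSG00000169429, chr4:73740506-73743716, plus strand). It had 42, 84 and 89 counts in trastuzumab replicates 1 to 3, against 8, 0 and 0 counts in untreated replicates 1 to 3. These were 0.6, 1.04 and 1.11 CPM in trastuzumab libraries, against 0.108, 0 and 0 CPM in untreated libraries. All trastuzumab libraries lay above the highest untreated one, and replicate 1 of the trastuzumab group was the lowest of its group. The log2 fold change was 4.60 ± 0.93, or 24.3-fold, with an edgeR adjusted p of 0.000934. The size of this ratio rests on untreated replicate 1: without it no untreated count is left, and the fitted log2 value of 9.12 then depends on the prior count and is no estimate of size.

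CXCL2 and CXCL3 are close copies of CXCL1 with the same receptor. CXCL2 (ENSG00000081041, chr4:74097035-74099293, minus strand) had 6, 4 and 8 counts in trastuzumab libraries, against 0 counts in all 3 untreated libraries. The groups did not overlap, but 18 counts against 0 are too few for the test. With the 18 counts taken as observed and a floor of 3 counts over the untreated group, the scaled ratio for CXCL2 was 5.72. Counting error on the 18 counts is not included, so this ratio is no lower bound. Fitted without a filter on low counts, its edgeR adjusted p was 0.124. CXCL3 (ENSG00000163734, chr4:74036589-74038807, minus strand) had 0, 7 and 0 counts in trastuzumab libraries, against 9, 0 and 0 in untreated libraries. Each group held 1 library with reads, and no difference was detectable at this depth. Shared 50-base words made up 12.5% of CXCL2 and 6.0% of CXCL3, so reads may be split between these copies. The promoter windows of all 3 genes are close copies too, as printed above, while their mean levels in trastuzumab libraries were 0.67 FPKM for CXCL1, 0.0433 for CXCL2 and 0.01 for CXCL3.

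**Figure D2:**
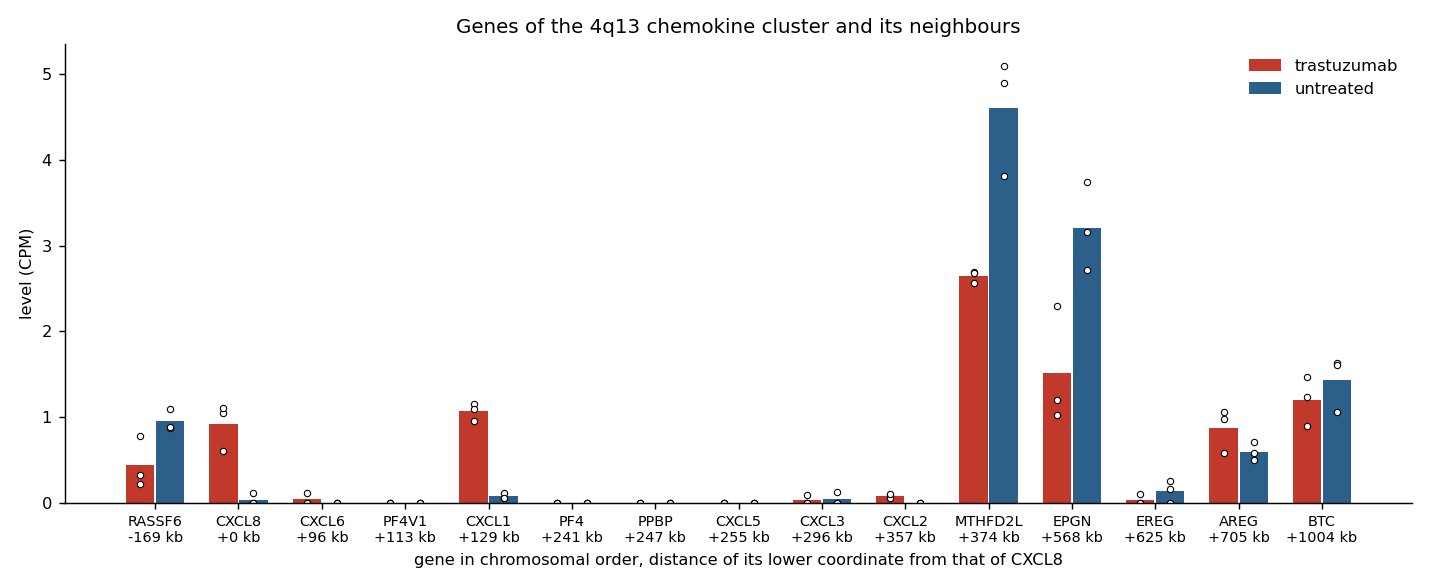
Level of each gene of the chemokine cluster on chromosome 4 in CPM, in chromosomal order, with the distance of its lower coordinate from that of CXCL8 in kb. Bars are group means, trastuzumab left of untreated, and circles are single libraries. CXCL8 and CXCL1 are higher in trastuzumab libraries, MTHFD2L and EPGN lower, and PF4V1, PF4, PPBP and CXCL5 are at 0 in every library.

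The 4 neutrophil attractants lie together on 4q13, with the growth factor genes EPGN, EREG, AREG and BTC further along. Measured between lower coordinates, CXCL1 lies 129 kb from CXCL8, CXCL3 296 kb and CXCL2 357 kb. Over each group of libraries, CXCL8 had 215 counts in trastuzumab libraries against 8 in untreated libraries, and CXCL1 had 246 against 16. CXCL6, another ligand of this receptor pair, lies 96 kb from CXCL8 and had 9 counts over the trastuzumab libraries, against 0 over the untreated libraries. The platelet chemokines PF4, PF4V1 and PPBP and the epithelial chemokine CXCL5 had 0 counts in all 6 libraries. Of the 19 genes in and around the cluster, 8 were tested, with 2 rising (CXCL1 and CXCL8) and 2 falling. Over all tested genes, 23.9% were called higher and 25.4% lower. CXCL1 and CXCL8 entered the test only through the trastuzumab libraries. RASSF6, AREG, BTC and PARM1 did not pass. The median log2 fold change of the 8 was -0.14, against -0.01 over all tested genes. The corrected fit called 2 of them higher, against 18.5% of genes, and 1 lower. MTHFD2L, a mitochondrial folate enzyme gene 374 kb from CXCL8, fell to 2.65 ± 0.0693 CPM in trastuzumab libraries, against 4.60 ± 0.695 CPM in untreated libraries (SD, n = 3 each). Its log2 fold change was -0.80 ± 0.18, with an edgeR adjusted p of 0.00148, and the corrected fit did not call it (-0.20, adjusted p 0.425). EPGN, which encodes an EGF receptor ligand, fell to 1.51 ± 0.69 CPM in trastuzumab libraries, against 3.21 ± 0.514 CPM in untreated libraries. Its edgeR adjusted p was 0.00438 for a log2 fold change of -1.09 ± 0.29. Without trastuzumab replicates 2 and 3 the log2 fold change of EPGN was -0.48, from a fit with a single trastuzumab library.

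CCL20 attracts dendritic cells and lymphocytes that carry CCR6 to epithelia (ENSG00000115009, chr2:227805739-227817564, plus strand). It had 89, 134 and 81 counts in trastuzumab libraries, against 7, 22 and 0 counts in untreated libraries. These were 1.27, 1.66 and 1.01 CPM in trastuzumab libraries, against 0.0947, 0.299 and 0 CPM in untreated libraries. The groups did not overlap, and both varied more between libraries than CXCL1 did. The log2 fold change was 3.31 ± 0.87, or 9.89-fold, with an edgeR adjusted p of 0.0127. The call depended on the processing. Without untreated replicate 1 its adjusted p was 0.0877 at a log2 fold change of 3.12, and without a filter on low counts it was 0.0664.

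CCL28, a mucosal chemokine of secretory epithelia that acts on CCR10 and CCR3 (ENSG00000151882, chr5:43376645-43412391, minus strand), had 5, 0 and 11 counts in trastuzumab libraries, against 7, 8 and 4 in untreated libraries. The groups overlapped fully. The fit without a filter gave a log2 fold change of -0.30 with an edgeR adjusted p of 0.942, and at these counts no difference was detectable.

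CXCL16 is a chemokine made as a membrane protein, from which ADAM10 sheds the soluble form that acts on CXCR6 (ENSG00000161921, chr17:4733526-4739922, minus strand). It had 521, 615 and 557 counts in trastuzumab libraries, against 309, 307 and 424 counts in untreated libraries. These were 7.44, 7.62 and 6.95 CPM in trastuzumab libraries, against 4.18, 4.17 and 5.83 CPM in untreated libraries. The groups did not overlap, with untreated replicate 3 nearest to the trastuzumab libraries. The log2 fold change was 0.63 ± 0.16, or 1.55-fold, with an edgeR adjusted p of 0.00311. CXCL16 is GC-rich among the members, at 56.0% of transcript bases, and the corrected fit gave 0.31 ± 0.15 with an adjusted p of 0.122. It overlaps MED11 on the other strand, which had 1143, 1182 and 1187 counts in trastuzumab libraries, against 916, 815 and 885 in untreated libraries. The kit was directional, but no source used here gives the strand setting of the counting, and without it reads of the 2 genes cannot be told apart.

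TNF, the cytokine that binds TNFRSF1A and TNFRSF1B and activates NF-kB (ENSG00000232810, chr6:31575567-31578336, plus strand), had 130, 235 and 243 counts in trastuzumab libraries, against 77, 32 and 55 counts in untreated libraries. These were 1.86, 2.91 and 3.03 CPM in trastuzumab libraries, against 1.04, 0.435 and 0.756 CPM in untreated libraries. All trastuzumab libraries lay above all untreated libraries, and trastuzumab replicate 1 was the nearest to them. The mean was 2.60 ± 0.647 CPM in trastuzumab libraries and 0.744 ± 0.304 CPM in untreated libraries (SD, n = 3 each). The log2 fold change was 1.80 ± 0.33, or 3.49-fold, with an edgeR adjusted p of 0.000202, and 1.48 ± 0.32 in the corrected fit with an adjusted p of 0.00156.

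IL6, an inducer of the acute-phase response (ENSG00000136244, chr7:22725884-22732002, plus strand), had 9 counts in trastuzumab replicate 2 and 0 in the other 5 libraries. A single library carried all its reads, and the fit without a filter gave an edgeR adjusted p of 0.242. It overlaps STEAP1B on the other strand. IL18, which drives interferon gamma release from lymphocytes (ENSG00000150782, chr11:112143251-112164117, minus strand), was the member with the highest FPKM in both groups. It had 905, 795 and 901 counts in trastuzumab libraries, against 1141, 800 and 738 counts in untreated libraries. These were 12.9, 9.85 and 11.2 CPM in trastuzumab libraries, against 15.4, 10.9 and 10.1 CPM in untreated libraries. The groups overlapped, with untreated replicate 1 the highest of the 6 libraries. The log2 fold change was -0.10 ± 0.16 with an edgeR adjusted p of 0.643. In the corrected fit it was 0.22 ± 0.13 with an adjusted p of 0.216, so no direction can be given for IL18.

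**Figure D3:**
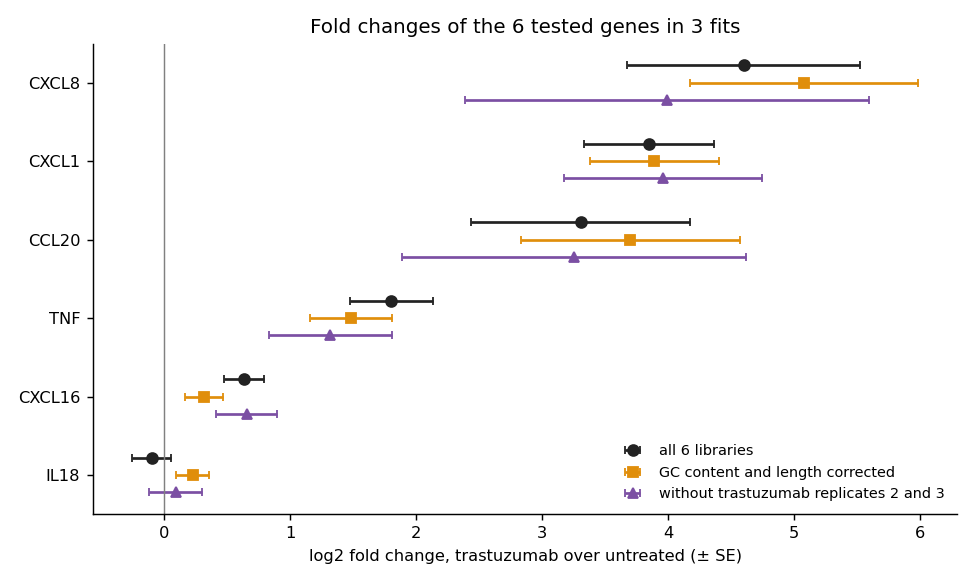
Log2 fold change, trastuzumab over untreated, of the 6 tested members, with standard errors, from the fit to all 6 libraries, the fit corrected for GC content and length, and the fit without trastuzumab replicates 2 and 3. CXCL8 at 4.60 and CXCL1 at 3.85 are the highest, CXCL16 is at 0.63 and at 0.31 under the correction, and IL18 lies on either side of 0.

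The basal keratins KRT5 and KRT14 set trastuzumab replicates 2 and 3 apart. KRT5 had 43, 732 and 663 counts in trastuzumab replicates 1 to 3, against 94, 76 and 50 in untreated libraries. KRT14 had 4, 608 and 619 counts in trastuzumab replicates 1 to 3, against 0, 7 and 17 in untreated libraries. The 7 basal epithelial markers summed to 5.84, 26.7 and 24.0 CPM in trastuzumab replicates 1 to 3, against 8.18 to 9.34 CPM in untreated libraries. Most of the excess in replicates 2 and 3 was KRT5 and KRT14. By the test, 1 of the 7 markers rose (ACTA2, higher in all 3 trastuzumab libraries), where 23.9% of all tested genes were called higher. TP63, MYLK and OXTR fell, with log2 fold changes of -1.43, -0.43 and -1.13, where 25.4% were called lower. The other 3 did not pass, KRT5 and KRT14 among them. The corrected fit called 1 of the 7 higher and 1 lower. It did not call TP63 (-1.07, edgeR adjusted p 0.0986) or MYLK (-0.19, edgeR adjusted p 0.426). CXCL8 and TNF were also lower in trastuzumab replicate 1 than in replicates 2 and 3, whereas CXCL1 was not and CCL20 was highest in replicate 2 and lowest in replicate 3. With replicates 2 and 3 left out together, the remaining trastuzumab library is assumed to vary like the untreated ones. CXCL1 then stood at a log2 fold change of 3.96, against 3.85 with all 6 libraries. CXCL8 stood at 3.99 against 4.60, CCL20 at 3.26 against 3.31, TNF at 1.32 against 1.80 and CXCL16 at 0.65 against 0.63. A single trastuzumab library leaves less power for every gene. A call lost in this fit therefore cannot be read as a trait of these genes.

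**Figure D4:**
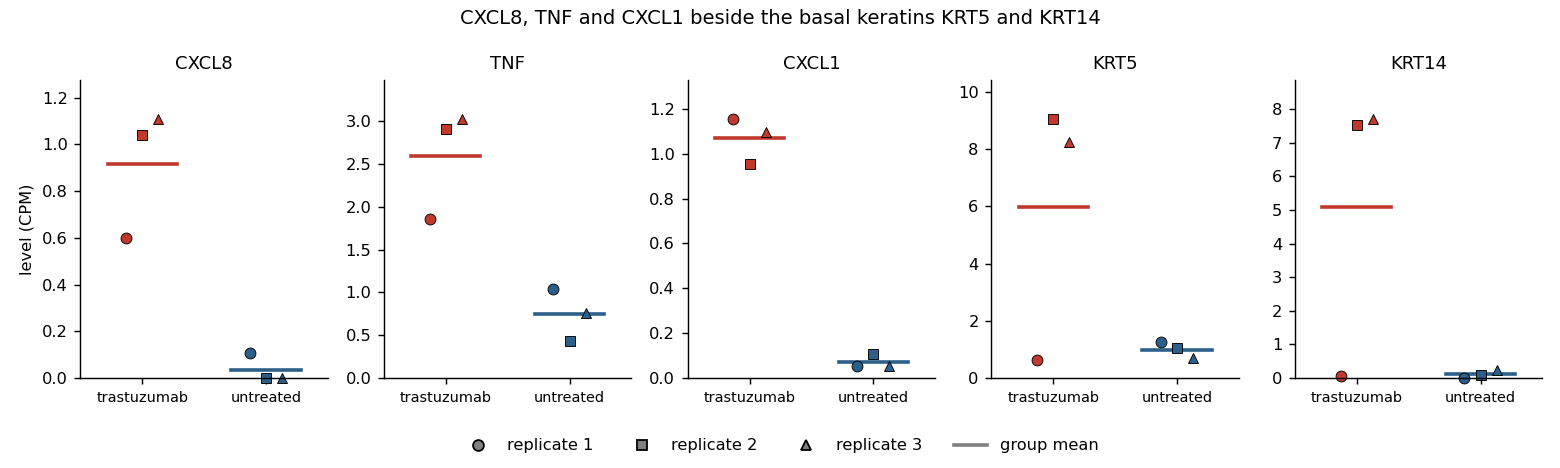
Level of CXCL8, TNF, CXCL1, KRT5 and KRT14 in each library, in CPM on linear axes scaled per gene, trastuzumab left of untreated. Points are single libraries with 1 shape per replicate, and lines are group means. The keratins are high in trastuzumab replicates 2 and 3, at 7.53 to 9.07 CPM, while CXCL1 is at 0.954 to 1.16 CPM in all 3 trastuzumab libraries.

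Leukocytes are a usual source of these proteins in tissue. The 14 leukocyte markers summed to 61.0 to 67.6 CPM in trastuzumab libraries and 68.9 to 92.8 CPM in untreated libraries, with 2 of them at 0 across the trastuzumab group and 5 at 0 across the untreated group. Most of those counts came from CD68, a lysosomal protein, and CSF1R, the receptor of CSF1. CD68 averaged 43.0 ± 3.37 CPM in trastuzumab libraries and 14.8 ± 1.48 CPM in untreated libraries, and CSF1R 16.1 ± 0.923 CPM in trastuzumab libraries and 64.7 ± 10.5 CPM in untreated libraries. The defining leukocyte gene PTPRC had 0, 25 and 7 counts in trastuzumab libraries, against 20, 20 and 0 in untreated libraries, and CD2 had 0 in all. The 8 fibroblast markers summed to 6.38 to 11.5 CPM in trastuzumab libraries and 9.74 to 19.5 CPM in untreated libraries. The 6 endothelial markers summed to 79.0 to 86.1 CPM in trastuzumab libraries and 28.6 to 31.7 CPM in untreated libraries, most of it CDH5 in both groups. The 9 luminal epithelial markers summed to 23326 to 25087 CPM in trastuzumab libraries and 20053 to 21806 CPM in untreated libraries. ERBB2, the HER2 gene, was the largest part of both, averaging 11050 CPM in trastuzumab libraries and 7925 CPM in untreated libraries. By the test 4 of the 9 rose, where 23.9% of all tested genes were called higher. EPCAM and KRT8 fell, at log2 fold changes of -0.19 and -0.17, where 25.4% were called lower. The corrected fit called 1 higher (ERBB2, 0.33), against 18.5% of genes, and 5 lower. All 6 libraries are labelled as mammary epithelium. The part of the endothelial and leukocyte markers in the differences of the cytokine genes was not tested.

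Among 37 other chemokine genes, 17 had 0 counts in all 6 libraries and 28 were not tested. Of the 9 tested, 4 rose, 0 fell and 5 did not pass, where 23.9% of all tested genes were called higher and 25.4% lower. The median log2 fold change of the 9 was 1.18, against -0.01 over all tested genes. It includes CXCL10 and CXCL14, which reached 10 counts in 1 untreated library each and entered the test through the trastuzumab libraries. The corrected fit called 3 higher, against 18.5% of genes, and 0 lower. CCL2, which attracts monocytes, had 184, 242 and 235 counts in trastuzumab libraries, against 40, 39 and 23 counts in untreated libraries. The groups did not overlap, with a log2 fold change of 2.62 ± 0.29 and an edgeR adjusted p of 1.18e-06. CCL22, a ligand of CCR4 that attracts regulatory T cells, averaged 6.09 ± 0.199 CPM in trastuzumab libraries and 2.01 ± 0.411 CPM in untreated libraries (log2 fold change 1.60 ± 0.19, adjusted p 2.10e-06). CCL17, the other ligand of CCR4, averaged 1.31 ± 0.297 CPM in trastuzumab libraries and 0.577 ± 0.0289 CPM in untreated libraries. Its adjusted p was 0.00773, and 0.0820 in the corrected fit. CX3CL1, a membrane-bound chemokine, averaged 95.7 ± 3.61 CPM in trastuzumab libraries and 51.5 ± 1.24 CPM in untreated libraries (log2 fold change 0.89 ± 0.05, adjusted p 1.37e-09). CCL5, chosen after its values were seen, had 0, 11 and 0 counts in trastuzumab libraries, against 15, 23 and 12 counts in untreated libraries. It went the other way from the 4 called genes, at a log2 fold change of -2.25 with an edgeR adjusted p of 0.125 and a limma-voom adjusted p of 0.0112.

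Of 40 other cytokine genes, 14 were tested, of which 8 rose, 1 fell and 5 did not pass, against 23.9% of all tested genes higher and 25.4% lower. Their median log2 fold change was 0.70. The tested genes include IL1RN, which reached 10 counts in 2 untreated libraries and entered the test through the trastuzumab libraries. The number called higher is therefore no measure of the list as a set. The corrected fit called 6 higher, against 18.5% of genes, and 1 lower. IL1RN, the interleukin 1 receptor antagonist, averaged 1.07 ± 0.0976 CPM in trastuzumab libraries and 0.219 ± 0.119 CPM in untreated libraries, a log2 fold change of 2.29 ± 0.47 with an edgeR adjusted p of 0.00062. IL36RN, the interleukin 36 receptor antagonist, averaged 3.25 ± 0.368 CPM in trastuzumab libraries and 1.75 ± 0.19 CPM in untreated libraries (0.89 ± 0.21, adjusted p 0.00211). IL32, which induces other cytokines, averaged 2.09 ± 0.361 CPM in trastuzumab libraries and 0.482 ± 0.149 CPM in untreated libraries (2.12 ± 0.33, adjusted p 4.33e-05). CSF1, the macrophage growth factor, averaged 10.1 ± 1.72 CPM in trastuzumab libraries and 3.46 ± 0.705 CPM in untreated libraries (1.55 ± 0.17, adjusted p 1.39e-06). These 4 genes were picked for having the largest changes, and in none did the groups overlap, where every trastuzumab library was the higher for 28.3% of all tested genes. MIF, an abundant constitutively made cytokine, had a log2 fold change of 0.39 ± 0.05 that the corrected fit did not keep (-0.07, adjusted p 0.199), and the same held for TNFSF13, at 0.53 and then 0.16 (adjusted p 0.0836). IL12A, chosen after its values were seen, was the gene that fell. It averaged 3.74 ± 0.945 CPM in trastuzumab libraries and 6.09 ± 0.619 CPM in untreated libraries. Its log2 fold change was -0.71, and -0.34 without trastuzumab replicates 2 and 3.

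Of 14 genes for receptors of the members, 8 were tested, of which 1 rose, 1 fell and 6 did not pass, against 23.9% of all tested genes higher and 25.4% lower. Their median log2 fold change was -0.02. IL6R, the ligand-binding IL6 receptor, averaged 149.8 ± 4.15 CPM in trastuzumab libraries and 127 ± 3.42 CPM in untreated libraries, a log2 fold change of 0.23 ± 0.05 with an edgeR adjusted p of 0.000485. IL6ST, the signalling subunit shared by the IL6 family, averaged 24.8 ± 1.96 CPM in trastuzumab libraries and 38.3 ± 1.1 CPM in untreated libraries. Its log2 fold change was -0.63 ± 0.08 with an adjusted p of 3.39e-06, and -0.05 with an adjusted p of 0.605 in the corrected fit. TNFRSF1A, the widely expressed TNF receptor, averaged 81.9 ± 0.939 CPM in trastuzumab libraries and 81.7 ± 2.26 CPM in untreated libraries (log2 fold change 0.00 ± 0.05, adjusted p 0.960). The corrected fit put TNFRSF1A at -0.32 with an adjusted p of 1.87e-05. CXCR2, the receptor of the neutrophil attractants, had 57, 36 and 73 counts in trastuzumab libraries, against 22, 45 and 97 in untreated libraries. The groups overlapped and varied widely. CXCR6, CCR3, TNFRSF1B and the decoy receptor ACKR2 also did not pass, and CCR6, the receptor of CCL20, had 0 counts in all 6 libraries.

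IL18, TNF and CXCL16 are released after cleavage of their proteins, so genes of this step were listed separately. Of 14 such genes, 9 were tested, of which 5 rose, 1 fell and 3 did not pass, against 23.9% of all tested genes higher and 25.4% lower. The median log2 fold change was 0.54. CASP4, an inflammatory caspase that can cut the IL18 precursor, averaged 18.8 ± 1.29 CPM in trastuzumab libraries and 8.57 ± 0.65 CPM in untreated libraries, a log2 fold change of 1.13 ± 0.10 with an edgeR adjusted p of 1.57e-07. GSDMD, whose cleaved form makes the membrane pores through which IL18 leaves, averaged 106 ± 4.44 CPM in trastuzumab libraries and 67.4 ± 3.29 CPM in untreated libraries (0.66 ± 0.05, adjusted p 5.49e-08). NLRP1, an inflammasome sensor, rose by 0.93 ± 0.20 on the log2 scale (adjusted p 0.00109). CASP1, another inflammatory caspase of the list, named after its values were seen, did not pass. Its log2 fold change was -0.05 (edgeR adjusted p 0.970), and 0.23 in the corrected fit (edgeR adjusted p 0.858). RHBDF1 and RHBDF2, which carry the TNF-shedding protease ADAM17 to the cell surface, rose by 0.57 and 0.54 on the log2 scale, RHBDF2 being named after its values were seen. ADAM10, the protease that sheds CXCL16, fell to 56.1 ± 4.65 CPM in trastuzumab libraries, against 80.9 ± 4.73 CPM in untreated libraries (-0.53 ± 0.07, adjusted p 4.79e-06). The corrected fit gave 0.09 for ADAM10 with an adjusted p of 0.222, and called 6 of the 9 higher, against 18.5% of genes, and 0 lower. ADAM17, its values given after they were seen, was at -0.14 (edgeR adjusted p 0.167), and at 0.41 in the corrected fit (edgeR adjusted p 0.000401).

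All 30 listed genes that control transcription or decay of cytokine mRNA were tested, and 24 rose, 2 fell and 4 did not pass, against 23.9% of all tested genes higher and 25.4% lower. The list was chosen with earlier results of these data known, so the number called is no measure of it as a set. At the median the log2 fold change of its genes was 0.63, against -0.01 over all tested genes. The corrected fit called 17 higher, against 18.5% of genes, and 0 lower, with a median of 0.27. Scaling by library totals alone gave 20 higher and 3 lower, where 3788 of 17854 genes were called higher and 4957 lower. Without trastuzumab replicates 2 and 3 the median log2 fold change of the list was 0.55. IRF1, a transcription factor induced by interferon gamma and TNF, had 26.1, 30.1 and 28.1 CPM in trastuzumab libraries, against 10.3, 8.94 and 10.8 CPM in untreated libraries, a log2 fold change of 1.49 ± 0.10 with an edgeR adjusted p of 3.74e-09. RELB, the NF-kB subunit of the non-canonical pathway, had 1772, 2390 and 2305 counts in trastuzumab libraries, against 889, 919 and 841 counts in untreated libraries (log2 fold change 1.21 ± 0.09, adjusted p 1.40e-08). NFKBIE, an inhibitor of NF-kB and itself its target, rose by 1.09 ± 0.10 on the log2 scale, and IKBKE, a kinase of the same pathway, rose by 0.94 ± 0.07. CEBPB, which acts with NF-kB on the CXCL8 and IL6 genes, averaged 284 ± 11.7 CPM in trastuzumab libraries and 178 ± 6.68 CPM in untreated libraries (0.68 ± 0.05, adjusted p 8.92e-09). STAT3, which carries the IL6 signal, rose by 0.12 ± 0.04 on the log2 scale (adjusted p 0.0194). That call was lost with library totals alone (0.06, adjusted p 0.165). It was also lost without trastuzumab replicate 1 (edgeR adjusted p 0.0522) or 3 (0.0797), and without untreated replicate 1 (0.0656) or 2 (0.0547). The 2 that fell, named after their values were seen, were the NF-kB subunit REL and the kinase CHUK, at log2 fold changes of -0.90 and -0.53. The corrected fit called neither, at -0.32 (adjusted p 0.123) for REL and an adjusted p of 0.989 for CHUK.

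**Figure D5:**
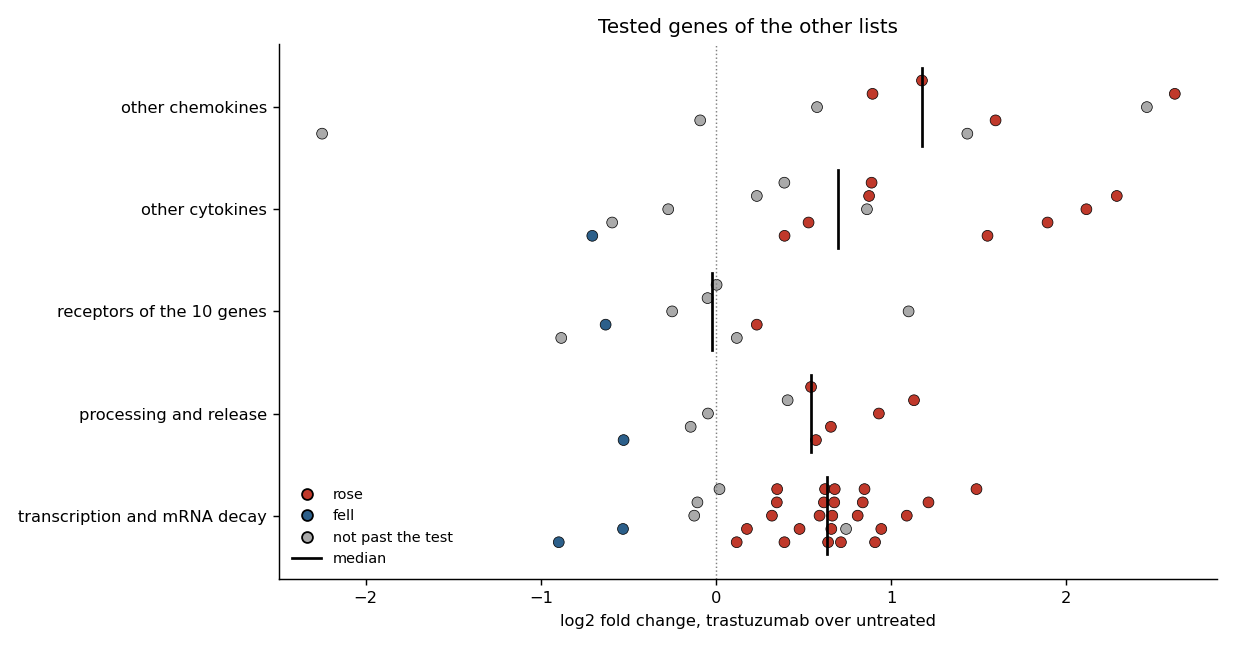
Log2 fold change, trastuzumab over untreated, of each tested gene in 5 lists, coloured by whether it rose, fell or did not pass the test, with a black line at each list's median. The control list lies mostly above 0, with 24 of 30 genes higher, and the receptor list is spread around 0, with 1 higher and 1 lower of 8.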

How the data were processed

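RNA was sequenced from 6 SKBR3 libraries. The authors deposited raw counts per gene, with no normalization, and FPKM values to 2 decimals for 33686 of the genes. STAR 2.4.2a and hg38 were used, per the submitters' processing notes. The counting program, its strand setting and its annotation: not given in the sources used here. Symbols matched 60401 identifiers, and GENCODE 29 placed 58394 on hg38, giving positions, GC content and exonic length.

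The test was run on the deposited counts in edgeR 4.0.16 (R 4.3.3), using TMM factors (0.974 to 1.03), filterByExpr (minimum count 10) and the robust quasi-likelihood test of trastuzumab minus untreated with no covariate. The corrected fit adds offsets from a spline (5 degrees of freedom) on GC content and length. SE is the log2 fold change divided by the root of F. The script was tested on simulated data. Between libraries of a group, chi-square divided by its degrees of freedom was 19.1 to 29.2, beyond sampling noise, so none was treated as a copy of another.

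Members and lists were chosen with earlier results of these data known. Beyond the members, the text names, per list, up to 4 changed genes with the largest log2 fold change and at least 1 CPM in the higher group, the 2 tested genes with the highest mean CPM (not scaled by length), and tested 4q13 and receptor genes. CD68, CSF1R, CDH5, PTPRC, CD2, KRT5 and KRT14 are markers. Genes listed without a test are named for their place in the family.

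Alternatives were DESeq2 1.42.0, limma-voom (limma 3.58.1), RLE or upper quartile factors, library totals alone, no filter, a mean of at least 1 CPM, limma on log2(FPKM + 1) and log2(FPKM + 0.1) of genes with at least 1 FPKM in 3 libraries or of all genes, an adjusted p below 0.01, the replicate number as a block, the correction, and leaving out each library. Leaving out trastuzumab replicates 2 and 3 together was added after seeing the data.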

Additional observations from a re-analysis of the deposited data

How the results depend on the processing

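The count of genes changed, 8808 as reported, lay between 5926 and 8986 under the 21 alternatives, and between 7882 and 8689 when 1 library was left out. Of the members, 5 of 6 tested were called as reported, where 8808 of 17854 genes were, and 4 to 5 with 1 library left out. With a mean of at least 1 CPM, 3 members could be tested and 2 were called, where 8580 of 13206 genes were. On log2(FPKM + 1) and on log2(FPKM + 0.1), 2 could be tested and 1 was called. Of 10851 genes, 7447 and 7424 were called in these fits. The fit without trastuzumab replicates 2 and 3 was chosen after seeing the data. CXCL1 was called in all 18 alternatives that tested it, with log2 fold changes of 2.36 to 4.25 and adjusted p from 5.13e-10 to 0.00153. CXCL8 and TNF were called in all but the one without trastuzumab replicates 2 and 3, and ranged from 1.96 to 9.12 and from 1.32 to 2.13. CXCL16 ranged from 0.31 to 0.81 and lost its call in 4 of 21 alternatives, among them log2(FPKM + 0.1) without a filter (adjusted p 0.0649). CCL20 lost its call in 4 of 18, among them the threshold of 0.01. IL18, never past the threshold, was above 0 in 4 alternatives: 0.22 with the correction, 0.23 with the correction and the replicate block (adjusted p 0.0954), 0.11 without untreated replicate 1 (0.579) and 0.089 without trastuzumab replicates 2 and 3 together (0.816). With 1 library left out at a time it ranged from -0.22 to 0.11. The cause of these changes was not tested. Replicate numbers gave no pairing, with same-numbered libraries correlating at -0.0007, -0.013 and -0.016 in their deviations from the group means. The replicate block called 8653 genes and 5 members. Depth limits CXCL2, CXCL3, CCL28 and IL6, whose 0 to 11 counts in a library leave small or moderate differences undetectable.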
